A study of Mus musculus with 12 samples.

Results

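The 9 genes described here, Spi1, Irf8, Cebpa, Runx1, Ikzf1, Sall1, Mef2a, Mef2c and Maf, encode transcription factors of the myeloid and microglial lineage. They were chosen by name, with earlier results of these data known, and each was found as a single row of the count matrix. They are 9 of 47643 gene rows, of which 18571 had at least 1 count and 11103 had at least 15 counts over the 10 samples and were tested, all 9 factors among them.

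The study asked which brain cells carry an active p16 promoter in old mice. Bulk RNA was sequenced from 5 male mice of genotype p16-3MR on a C57BL/6 background. Mice 1 to 5 were 113, 115, 116, 116 and 116 weeks of age. Each mouse gave 1 RFPneg and 1 RFPpos sample of brain cells, which the study calls RFPLow and RFPHigh, so that both populations carried the same transgene, came from the same animals and were compared within mice. In this transgene the p16 promoter drives a red fluorescent protein, and the sort kept nucleated viable cells by their fluorescence, whatever their type. The populations are therefore defined by reporter fluorescence in a mixture of brain cells, not by a microglial marker, and no wild-type or young mouse was among the bulk samples. Single-cell samples from female mice were not analysed here.

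Microglia are the resident macrophages of the brain and descend from early progenitors of the yolk sac. Their fate rests on lineage-determining factors that open myeloid enhancers, chiefly PU.1 (encoded by Spi1), which binds DNA together with IRF8, RUNX1 and C/EBP proteins. Factors such as SALL1, the MEF2 proteins and MAF then act on this shared macrophage ground to set the program of microglia in the healthy brain.

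The genes lie on 6 chromosomes of GRCm38 in the GENCODE M21 annotation, and all are protein-coding. Spi1 (ENSMUSG00000002111) lies at chr2:91082390-91115756 on the plus strand, and Cebpa (ENSMUSG00000034957) at chr7:35119293-35121928 on the plus strand. Irf8 (ENSMUSG00000041515) lies at chr8:120736358-120756694 on the plus strand. Sall1 (ENSMUSG00000031665) and Maf (ENSMUSG00000055435) lie on the minus strand of the same chromosome, at chr8:89027235-89044162 and chr8:115682942-115707794. Mef2a (ENSMUSG00000030557) lies at chr7:67231163-67372858 on the minus strand and Mef2c (ENSMUSG00000005583) at chr13:83504034-83667080 on the plus strand. Runx1 (ENSMUSG00000022952) lies at chr16:92601466-92826149 on the minus strand and Ikzf1 (ENSMUSG00000018654) at chr11:11685003-11772926 on the plus strand. Mef2a overlaps Gm44667, a gene of unclear status on the same strand, which had 52 counts in the RFPneg and 152 in the RFPpos samples, and Lysmd4 on the opposite strand, with 13 and 18 counts. The sources used here do not say whether strand was used in counting, so reads of these overlapping genes may not be fully told apart from those of Mef2a. The other overlapping genes of the 9 factors had 0 counts, apart from Gm44668 within Mef2a, with 5 and 12.

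Because these genes moved together in the comparison below, the 250 bases before their transcription starts were read from RefSeq promoters of build GRCm38.p6. Of the 9 factors, 7 matched, with 14 starts, and Spi1 and Maf were not matched. Motifs of the factors themselves were searched on both strands. The PU.1 and ETS core GAGGAA was present before 4 of the 14 starts, belonging to 3 genes, against 23.3% of all 32851 promoter windows of that length. Its longer form GAGGAAGT, which overlaps the core, was in 0 of the 14 windows, against 2.44% of all. The ETS-IRF composite GGAANNGAA was in 1 of the 14 windows, that of Runx1, against 6.99% of all. With a further A at its 3′ end, the form searched first, it was in 0 of the 14 (2.3% of all). The other motifs were in 0 of the 14: the IRF repeat GAAANNGAA (7.13% of all windows, and 2.98% with a further A), the RUNX motif TGTGGT (14%), the C/EBP motif TTGCNNCAA (1.74%) and the MEF2 motif TAAAAATA (2.45%). The 3 windows shown are 1 each of Mef2a, Mef2c and Runx1 that hold the core, 5′ to 3′ on the strand of the gene. In them GAGGAA, GGAANNGAA and their reverse complements are in capitals. They lie at chr7:67372859-67373108 (minus strand), chr13:83503784-83504033 (plus strand) and chr16:92697330-92697579 (minus strand, within the Runx1 locus). Another Mef2c window with the core, at chr13:83523406-83523655, is not shown.
Mef2a: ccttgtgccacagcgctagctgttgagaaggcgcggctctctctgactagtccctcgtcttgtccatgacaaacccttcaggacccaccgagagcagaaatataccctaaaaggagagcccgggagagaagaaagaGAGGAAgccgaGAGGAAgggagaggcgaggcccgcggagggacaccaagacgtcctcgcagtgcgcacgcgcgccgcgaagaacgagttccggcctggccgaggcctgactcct
Mef2c: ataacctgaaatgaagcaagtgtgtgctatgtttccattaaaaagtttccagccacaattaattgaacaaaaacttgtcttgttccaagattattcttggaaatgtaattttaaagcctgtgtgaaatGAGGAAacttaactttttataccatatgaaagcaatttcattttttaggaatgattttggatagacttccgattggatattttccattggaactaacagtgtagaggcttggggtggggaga
Runx1: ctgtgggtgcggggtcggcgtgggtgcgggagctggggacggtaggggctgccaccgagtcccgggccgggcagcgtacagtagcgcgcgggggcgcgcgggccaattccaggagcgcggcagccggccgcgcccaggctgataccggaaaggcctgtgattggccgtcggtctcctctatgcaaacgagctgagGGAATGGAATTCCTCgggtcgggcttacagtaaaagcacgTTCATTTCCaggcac
Mef2a holds the core at 2 places. Runx1 holds the composite at 2 places, of which the first ends right before the core on the opposite strand. These matches are descriptions of letters, not sites of binding.

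Library totals over genes ranged from 177287 to 415834 in RFPneg and from 222560 to 289713 in RFPpos. Reads on no gene, which are not part of these totals, were 35.5%, 33.1%, 32.1%, 36.7% and 37.2% in RFPneg1 to RFPneg5 and 38.4%, 42.1%, 38.5%, 39.8% and 48.6% in RFPpos1 to RFPpos5. This share was higher in RFPpos in 5 of 5 mice without overlap, and highest in RFPpos5, and its bearing on the levels below was not tested. Levels are given as CPM, a gene's counts scaled by all counts on genes to the same fixed total in each sample. Because the 3′ libraries count a tag at the end of each transcript, CPM is not divided by gene length. With few counts per gene at this depth, the counting error of a single sample is large: the 5 counts of Cebpa in RFPneg1 have an exact Poisson 95% interval from 1.62 to 11.7.

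All 9 factors were higher in the RFPpos samples. In edgeR's quasi-likelihood fit, with the mouse as a block and scaling by the trimmed mean of M values (TMM), 9 of 9 passed a Benjamini-Hochberg adjusted p of 0.05 over all genes tested, and all were higher in RFPpos. Over all genes tested, 5.20% were called higher and 8.20% lower. The median log2 fold change of the factors was 1.22, against −0.10 over all tested genes. For 8 of the 9, every RFPpos sample lay above every RFPneg sample in CPM, which held for 3.49% of tested genes. Of the 45 pairs of a factor and a mouse, 44 were higher in RFPpos on CPM, the exception being Spi1 in mouse 5.

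**Figure D1:**
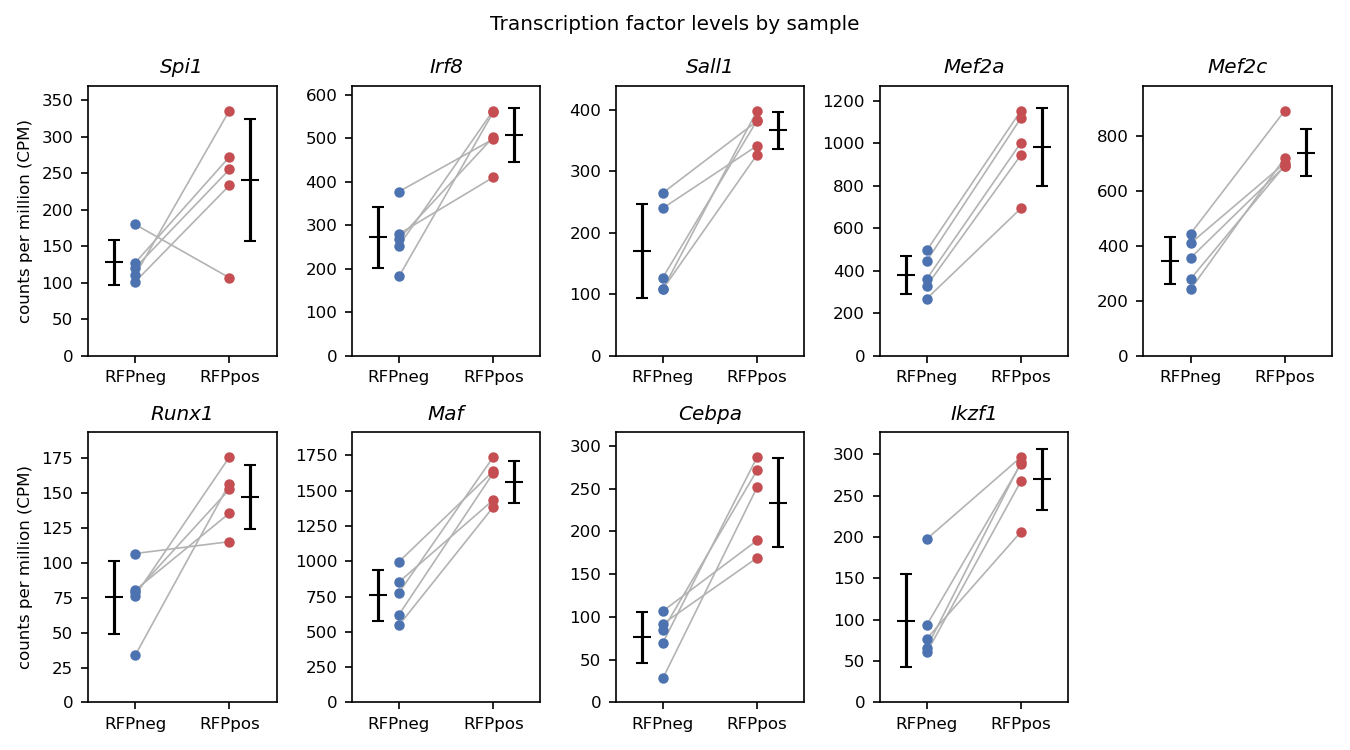
Levels of the 9 transcription factors in CPM on the y axis, 1 point per sample, with lines joining the 2 samples of a mouse and black bars for the mean and SD of 5 samples. The RFPpos points lie above all RFPneg points in every panel but that of Spi1, where RFPpos5 (107 CPM) falls among the RFPneg samples.

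Spi1 encodes PU.1, the ETS factor on which all macrophages depend. Its level was 102, 128, 111, 121 and 180.2 CPM in RFPneg1 to RFPneg5 and 234, 273, 336, 256 and 107 CPM in RFPpos1 to RFPpos5. The populations overlapped, since RFPpos5 was lower than 4 of the RFPneg samples and lower than its own RFPneg partner, which was the highest of its group. The means were 128 ± 30.7 CPM and 241 ± 84.1 CPM (SD, n = 5 each), with 173 counts in the RFPneg and 296 in the RFPpos samples. The log2 fold change was 0.97 (standard error 0.24, edgeR adjusted p = 0.00148), the smallest of the 9. Without mouse 3 it was 0.75 (edgeR adjusted p = 0.0895), and over the other settings the adjusted p was between 3.03e-05 without mouse 5 and 0.0933 with DESeq2, apart from the scaling on microglia genes described further on.

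Irf8 encodes the interferon regulatory factor that partners with PU.1 and is needed for microglial development. It had 378, 280.5, 183, 269.6 and 254 CPM in RFPneg1 to RFPneg5 and 499, 411, 560.4, 503 and 564 CPM in RFPpos1 to RFPpos5. No sample overlapped, although RFPneg1 came close to RFPpos2. The log2 fold change was 1.03 (standard error 0.21, edgeR adjusted p = 2.81e-05), higher in 5 of 5 mice.

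Cebpa encodes C/EBPα, which directs the myeloid fate. Its level was 28.2, 91.8, 69.7, 84.5 and 107 CPM in the RFPneg samples and 252, 169, 287, 272 and 189 CPM in the RFPpos samples, in the order of mice 1 to 5. Mouse 1 had the lowest RFPneg value, from 5 counts, and the populations did not overlap. The estimate for Cebpa was the highest of the 9, at a log2 fold change of 1.70 (standard error 0.26, edgeR adjusted p = 1.79e-08). Its 95% interval ran from 1.19 to 2.22 and overlapped those of the other 8 factors.

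Runx1 encodes a core factor of blood stem cells and early microglia. It had the fewest counts of the 9 in both populations, 95 in the RFPneg and 182 in the RFPpos samples. CPM in mice 1 to 5 were 79.0, 76.5, 33.7, 80.5 and 107 in RFPneg and 153, 176, 157, 136 and 115 in RFPpos. The populations were separate, but in mouse 5 they differed by little. The log2 fold change was 1.12 (standard error 0.29, edgeR adjusted p = 0.00175). Mouse 3 had the lowest RFPneg value, and without it the log2 fold change was 0.83 (edgeR adjusted p = 0.0892), while the adjusted p over the other settings on all genes lay between 6.33e-04 without mouse 5 and 0.0671 with DESeq2.

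Ikzf1 encodes Ikaros, a zinc finger protein of lymphoid and myeloid cells. Its 5 RFPneg samples had 197, 66.3, 77.0, 60.4 and 93.4 CPM, and its 5 RFPpos samples 297, 289.9, 206, 268 and 288 CPM. RFPneg1 stood well above the other RFPneg samples and just below RFPpos3, the lowest of its group. The log2 fold change was 1.64 (standard error 0.25, edgeR adjusted p = 6.19e-09).

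Sall1 encodes a zinc finger repressor that, among brain cells and macrophages, is typical of microglia. In mice 1 to 5 its level was 265, 128, 108, 109 and 240.3 CPM in RFPneg and 382, 383, 399, 327 and 342 CPM in RFPpos. RFPneg1 and RFPneg5 were about as high as each other and above the remaining 3, while the RFPpos samples varied little, with 367 ± 30.5 CPM (SD, n = 5). The log2 fold change was 1.30 (standard error 0.22, edgeR adjusted p = 5.99e-07), with no overlap between populations.

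Mef2a and Mef2c encode MADS-box factors whose motif is common in microglial enhancers. Mef2a had 496, 362, 269, 330 and 447 CPM in RFPneg1 to RFPneg5 and 1155, 1004, 695, 946 and 1120 CPM in RFPpos1 to RFPpos5. The lowest values of both populations came from mouse 3, and the log2 fold change of 1.48 (standard error 0.20) had the smallest edgeR adjusted p of the 9, 3.35e-11. Mef2c had 446, 280.5, 243, 410.5 and 357 CPM in the RFPneg samples and 894, 694, 722, 703 and 692 CPM in the RFPpos samples. RFPpos1 stood apart from the other 4 RFPpos samples of Mef2c, which were nearly level. The log2 fold change of Mef2c was 1.22 (standard error 0.20, edgeR adjusted p = 1.34e-07). The ratio of Mef2a to Mef2c counts lay between 0.804 and 1.29 in RFPneg and between 0.963 and 1.62 in RFPpos, was higher in RFPpos in 4 of 5 mice, and overlapped between populations.

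Maf encodes c-MAF, a leucine zipper factor of tissue macrophages. With 778, 622, 854, 547 and 998 CPM in RFPneg1 to RFPneg5 and 1739, 1626, 1435, 1385 and 1639 CPM in RFPpos1 to RFPpos5, it was the highest of the 9 in each sample. The populations did not overlap, and the log2 fold change was 1.17 (standard error 0.19, edgeR adjusted p = 7.94e-08).

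In CPM of 3′ tags, the order of mean levels in RFPpos was Maf (1565 ± 149), Mef2a (984 ± 182), Mef2c (741 ± 86.5), Irf8 (507 ± 62.2), Sall1 (367 ± 30.5), Ikzf1 (269.7 ± 37.1), Spi1 (241 ± 84.1), Cebpa (234 ± 51.7) and Runx1 (147 ± 22.9; SD, n = 5 each). Ranges of neighbours overlapped between Mef2a and Mef2c and from Ikzf1 down to Runx1, so the order of these neighbours varied between samples, whereas Maf, Mef2c, Irf8 and Sall1 each lay above the next gene in all 5 samples without overlap. In RFPneg the order was Maf (760 ± 180.2), Mef2a (381 ± 91.0), Mef2c (347 ± 85.3), Irf8 (273 ± 70.0), Sall1 (169.9 ± 76.4), Spi1 (128 ± 30.7), Ikzf1 (98.9 ± 56.5), Cebpa (76.2 ± 30.0) and Runx1 (75.3 ± 26.3). There only Maf was separated from its neighbour.

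The 9 factors together had 2770, 2035, 1948, 2012 and 2783 CPM in RFPneg1 to RFPneg5 and 5603, 5026, 4797, 4795 and 5058 CPM in RFPpos1 to RFPpos5. The populations also differed in microglial RNA. A list of 20 reference genes of microglia that encode no transcription factor, among them Ctss, Cx3cr1 and Csf1r, took 2.35%, 1.57%, 1.70%, 1.54% and 2.18% of counts in RFPneg and 4.53%, 3.96%, 4.13%, 4.00% and 3.46% in RFPpos. The share was higher in RFPpos in 5 of 5 mice (1.87% ± 0.371 and 4.02% ± 0.383, SD, n = 5 each; of the 32 ways to swap labels within mice, 2 reach this size with either sign, and 5 pairs cannot give fewer). Both populations held RNA of microglia, and all 20 reference genes were called higher in RFPpos, with a median log2 fold change of 1.22. In bulk samples a larger share of a cell type and more RNA per cell cannot be told apart.

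Measured against these 20 genes, the difference between populations was small. Per 10000 reference counts, the 9 factors together had 1239 ± 71.5 counts in RFPneg and 1266 ± 117 in RFPpos (SD, n = 5 each), higher in RFPpos in 3 of 5 mice. When the sum of the reference genes replaced the library size in the same edgeR fit, 0 of the 9 factors were called, and 0 had an unadjusted p under 0.05. Over all genes tested in that fit, 0.117% were called higher and 52.2% lower, with a median log2 fold change of −1.29. DESeq2, the edgeR likelihood ratio test and limma-voom on this scale also called 0 of the 9, with 0 at an unadjusted p under 0.05.

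**Figure D2:**
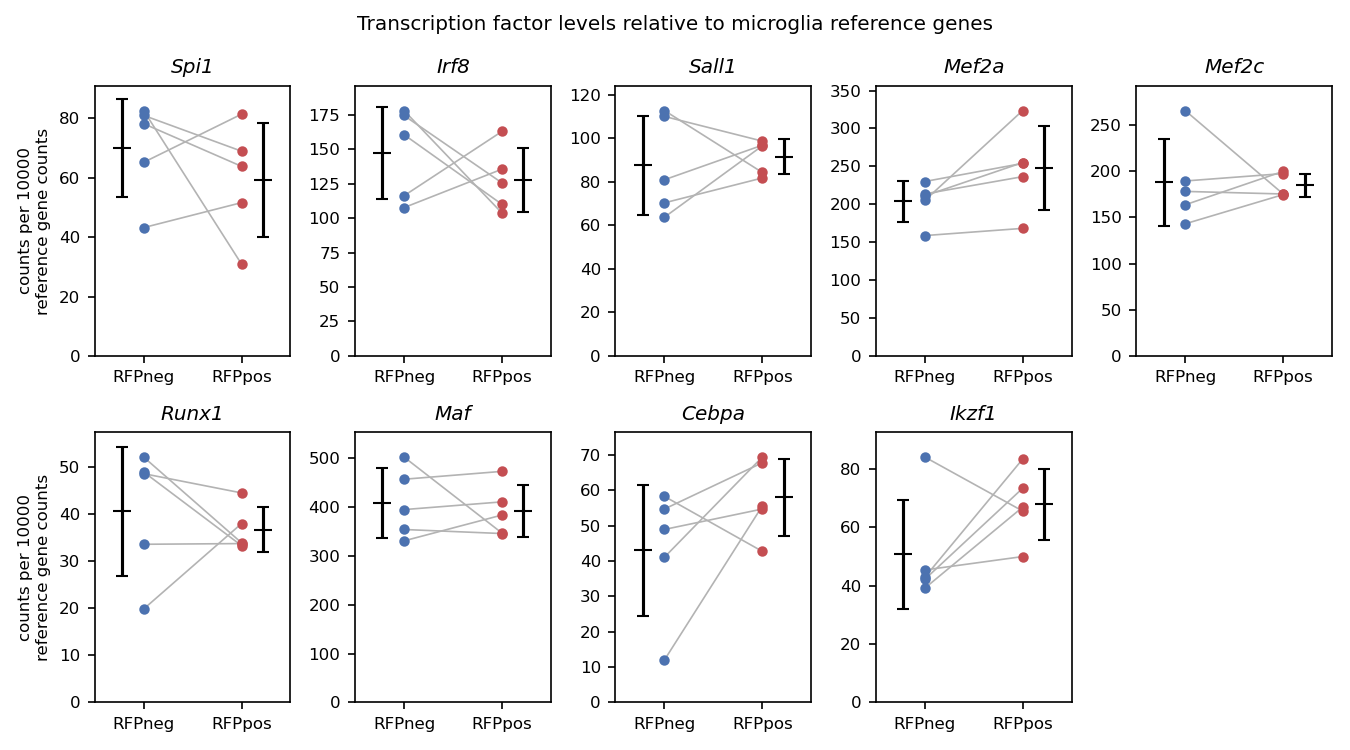
The same 9 genes as counts per 10000 counts on the 20 microglia reference genes (y axis), with lines joining the samples of a mouse and bars for the mean and SD of 5 samples. The populations overlap in all 9 panels, and 27 of the 45 pairs are higher in RFPpos.

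On the reference scale, Cebpa had 12, 58.3, 41.1, 54.7 and 49.0 counts per 10000 in RFPneg1 to RFPneg5 and 55.6, 42.8, 69.4, 67.8 and 54.7 in RFPpos1 to RFPpos5. The groups overlapped, and the lowest value was again that of mouse 1. Its relative log2 fold change was 0.49, with a 95% interval from −0.08 to 1.07 (edgeR adjusted p = 0.137). With single mice left out it ran from 0.22 without mouse 1 (0.561) to 0.72 without mouse 2 (0.0659). Ikzf1 had 84.0, 42.1, 45.3, 39.1 and 42.8 per 10000 in RFPneg and 65.5, 73.3, 49.9, 66.8 and 83.3 in RFPpos. In 4 of 5 mice it was higher in RFPpos, with mouse 1 the exception, and its relative log2 fold change was 0.44 (interval −0.10 to 0.97, edgeR adjusted p = 0.160; 0.29 without mouse 5 and 0.66 without mouse 1). Mef2a was higher in RFPpos in 5 of 5 mice on this scale, with 204 ± 26.8 and 247 ± 55.5 per 10000 (SD, n = 5 each), and a relative log2 fold change of 0.26 (interval −0.15 to 0.68, edgeR adjusted p = 0.277).

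For Spi1 the relative log2 fold change was −0.26 (95% interval −0.78 to 0.26), and RFPpos5 had the lowest value of all 10 samples, 30.9 per 10000. Irf8 had −0.19 (−0.63 to 0.26), Runx1 −0.09 (−0.71 to 0.52) and Maf −0.05 (−0.44 to 0.34). Sall1 had 0.09 (−0.38 to 0.57) and Mef2c 0.00 (−0.42 to 0.42). Signs near 0 were not stable: without mouse 5 Spi1 had 0.015, and with 8 homeostatic genes of microglia as the reference Runx1 had 0.0072 and Maf 0.049. The 95% intervals of all 9 factors include 0 and reach at least 0.26 above it, so a missed threshold does not show that a factor changed as the reference genes did.

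**Figure D3:**
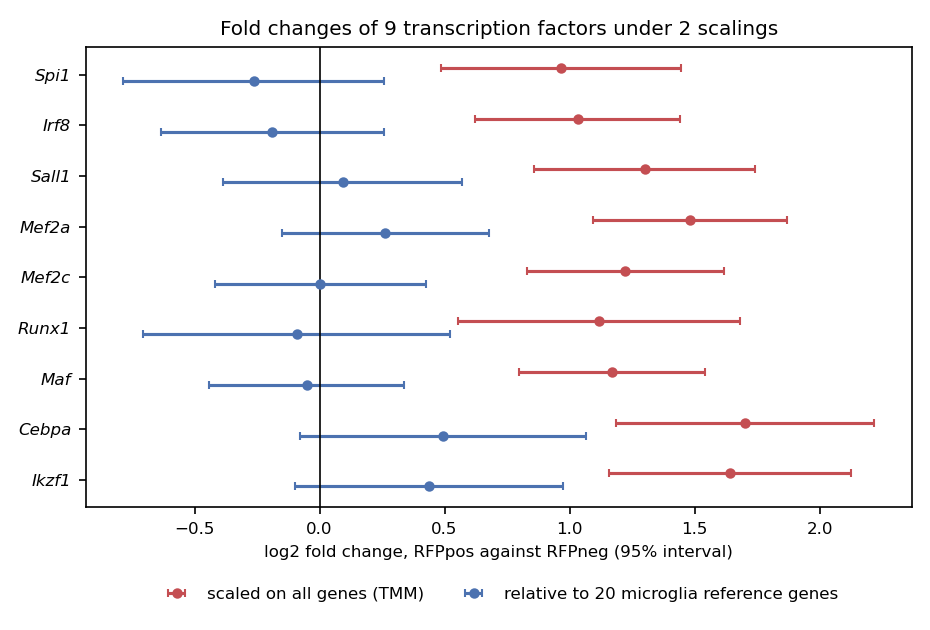
Log2 fold changes of RFPpos against RFPneg (x axis) with 95% intervals for the 9 factors, scaled on all genes or relative to the 20 microglia reference genes. On all genes the estimates run from 0.97 for Spi1 to 1.70 for Cebpa with every interval above 0, and relative to the reference genes from −0.26 to 0.49 with every interval including 0.

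The mean standardized profile of the 9 factors over the 10 samples was compared with 4357 other tested genes with a mean of at least 10 counts. The most alike were Csf1r (Pearson r = 0.986), the receptor on which microglia depend, Cmtm6 (0.982), Ctss (0.981), Fcgr3 (0.981) and Ctsd (0.978). With the mean of each population subtracted, r over the same 10 samples was 0.854 for Csf1r, 0.833 for Cmtm6, 0.779 for Ctss, 0.777 for Fcgr3 and 0.775 for Ctsd. These correlations share the samples and the library totals and are given as a description.

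The list of relatives held 38 genes tied to the 9 factors by protein family, by name alone (Cebpz) or as a partner protein (Cbfb). Of these 38, 26 were tested. Among the 26, 4 were called higher in RFPpos and 1 lower, beside 5.20% and 8.20% of all genes tested. Their median log2 fold change was 0.22. Sall3, a relative of Sall1, had 63.3 ± 13.4 CPM in RFPneg and 157 ± 25.9 CPM in RFPpos (SD, n = 5 each), with a log2 fold change of 1.42 (edgeR adjusted p = 3.16e-05). Weaker calls were those of Mafg, Cebpz and Ets2. Mafg had 0.79 (edgeR adjusted p = 0.0118, but 0.154 without mouse 4 and 0.0924 without mouse 5), and Cebpz 0.67 (0.0423, but 0.109, 0.0596, 0.0675, 0.0765 and 0.381 with mice 1 to 5 left out in turn). Ets2 was lower, at −1.56 (edgeR adjusted p = 0.0475, but 0.0576 without mouse 1, 0.272 without mouse 3 and 0.443 without mouse 4). DESeq2's Wald test did not call Mafg (adjusted p = 0.169), Cebpz (0.324) or Ets2 (0.190). The relatives Spib, Runx2, Runx3 and Cebpe had 11, 7, 12 and 11 counts in RFPneg, 0 in each RFPpos sample, and were not tested. Relative to the reference genes, 15 of the 26 tested relatives were called lower, beside 52.2% of all genes tested.

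Of 42 other regulators of myeloid cells, 35 were tested, 7 were called higher and 5 lower (5.20% and 8.20% of all genes tested), with a median log2 fold change of 0.39. Those called higher included Skil (0.98, edgeR adjusted p = 5.27e-04), a regulator of SMAD signalling, Tfe3 (1.13, 0.00150), a lysosomal regulator, Creg1 (0.80, 0.00186) and Bach1 (1.11, 0.00768, but 0.0528 without mouse 2 and 0.0864 without mouse 3). Rel (0.93, edgeR adjusted p = 0.0345), Nfatc2 (0.99, 0.0346) and Rxra (1.71, 0.0421) were not called with most single mice left out, the adjusted p then reaching 0.238, 0.183 and 0.199. Those called lower were Klf4 (−5.23, edgeR adjusted p = 1.85e-21), Klf2 (−3.45, 2.88e-19), Id2 (−1.34, 5.32e-07), Bhlhe40 (−2.13, 1.22e-04) and Gata2 (48 counts in RFPneg and 2 in RFPpos, 0.00288, but 0.0841 without mouse 3 and 0.0705 without mouse 4). DESeq2's Wald test did not call Gata2 (adjusted p = 0.268), Bach1 (0.101), Rel (0.222), Nfatc2 (0.218) or Rxra (0.165). Relative to the reference genes, 19 of these 35 genes were called lower, beside 52.2% of all genes tested. This list is not particular to myeloid cells, and Tal1 is also among the endothelial factors below. Which cells carried the counts of Klf4, Klf2 or Gata2 was not tested.

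Transcription factors of other brain cells were lower or not called. Of 15 tested endothelial factors, 11 were lower in RFPpos, with a median log2 fold change of −4.06, and Epas1 had the most counts (433 ± 141 and 27.2 ± 26.3 CPM, SD, n = 5 each). Of 20 macroglial factors 12 were lower, with a median of −1.35. Of 6 tested genes of the neuronal list 3 were lower, with a median of −1.70. These 6 include Rbfox3, an RNA-binding protein, which was not called (−1.73, edgeR adjusted p = 0.50). Each call in these 3 lists was lower in RFPpos, examples being Foxq1 (−5.13, edgeR adjusted p = 2.24e-20) and Sox17 (−4.73, 1.39e-14) of endothelial cells, Id3 (−1.97, 3.91e-12) and Olig1 (−3.29, 1.96e-10) of macroglia, and Zic1 (−1.02, 0.00689) of neurons. Nfia, a macroglial factor with many counts, had −0.02 (edgeR adjusted p = 0.971).

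**Figure D4:**
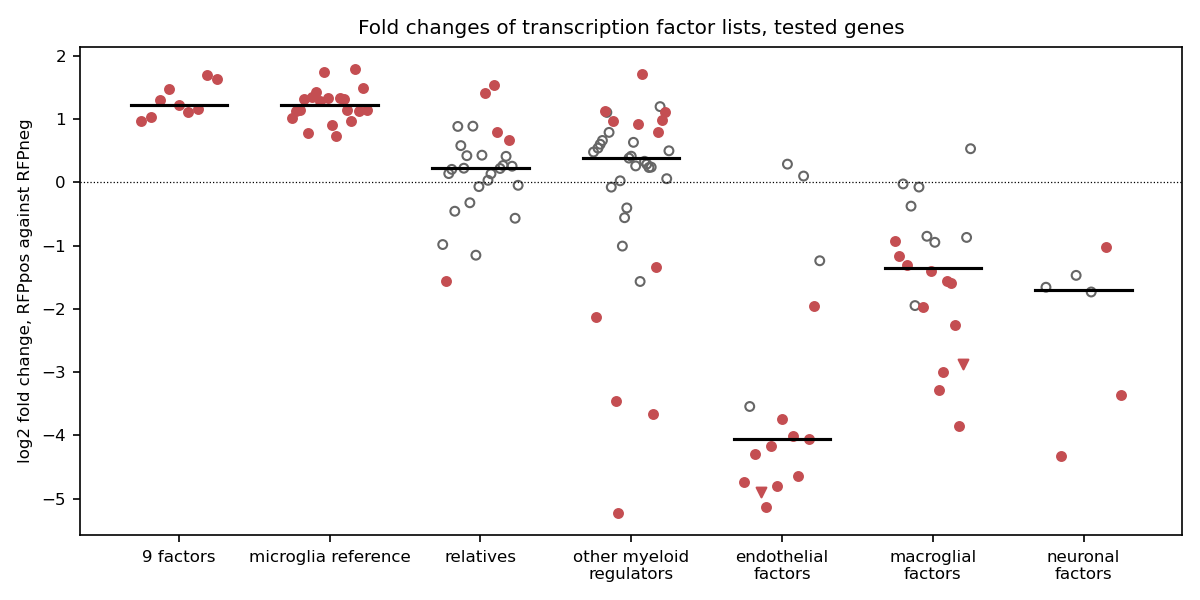
Log2 fold changes of RFPpos against RFPneg (y axis, TMM scaling) for the tested genes of 7 lists, with filled points for genes called, open points for genes not called, and bars for list medians. Triangles are genes at 0 in all RFPpos samples, placed at the bound that 3 counts over the group allow; the 9 factors and the 20 microglia reference genes share a median of 1.22.

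Several of the 9 factors are also expressed outside microglia, in monocytes, neutrophils, lymphocytes, brain macrophages and cells that are not of the blood lineage. The marker lists of such cells were therefore read beside them, here and in the next paragraph. The part of these cells in the levels of the factors was not tested. Monocyte and dendritic cell markers took 0.0857%, 0.0780%, 0.0952%, 0.0898% and 0.0828% of counts in RFPneg and 0.00494%, 0.0111%, 0.0144%, 0.0200% and 0.00659% in RFPpos. Of 8 tested, 6 were lower, the most abundant was H2-Aa (585 ± 81.8 and 70.6 ± 55.4 CPM, SD, n = 5 each), and Ly6c2, Chil3 and Flt3 were at 0 in RFPpos. Neutrophil markers, led by S100a8, took 0.266%, 0.282%, 0.726%, 0.430% and 0.241% in RFPneg and 0.0121%, 0.0207%, 0.0256%, 0.00599% and 0.00371% in RFPpos, with 6 of 7 lower and Ly6g, Ltf, Mmp9 and Cxcr2 at 0 in RFPpos. Markers of macrophages at the borders of the brain, led by Mrc1 (52.5 ± 12.9 and 79.5 ± 26.6 CPM), were low in both populations, with shares of 0.0226%, 0.0250%, 0.0255%, 0.0233% and 0.0267% in RFPneg and 0.0202%, 0.0383%, 0.0242%, 0.0204% and 0.0251% in RFPpos. This share was higher in RFPpos in 1 of 5 mice. The median log2 fold change of the 8 tested was 0.03, and Mrc1 had 0.68 (edgeR adjusted p = 0.240). Cd163 (1.52), Stab1 (0.61) and Pf4 (0.24) were also above 0. Below 0 were F13a1 (−1.43, edgeR adjusted p = 0.0803), Ms4a7 (−0.90), Lyve1 (−0.18) and Clec12a (16 counts in RFPneg and 0 in RFPpos). Of the 8, 0 were called.

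The remaining marker lists were all lower in RFPpos or mixed. T and NK cell markers, led by Ccl5, took 0.00969% to 0.0370% of counts in RFPneg and 0% to 0.00240% in RFPpos, with 3 of 6 tested genes lower and Cd3g, Cd3e, Cd3d and Cd8a among 9 of 11 genes at 0 in RFPpos. B cell markers, led by Ighm, took 0.0671% to 0.0961% and 0.0180% to 0.0280%, with 2 of 3 lower and Cd79a and Pax5 at 0. The lower ones were Igkc (−7.08) and Ebf1 (−5.83). Ighm itself was not called, with 222.5 ± 80.9 and 206 ± 34.9 CPM (SD, n = 5 each). Its log2 fold change was 0.05 (edgeR adjusted p = 0.946). Endothelial markers, led by Flt1, took 0.318% to 1.34% and 0.0252% to 0.0743%, with 16 of 16 lower. Mural cell and fibroblast markers, led by Vtn, took 0.0399% to 0.0785% and 0.00135% to 0.0252% (8 of 9 lower), and oligodendrocyte markers, led by Mbp, 0.115% to 0.330% and 0.0165% to 0.0360% (11 of 11 lower). Astrocyte markers, led by Slc1a2, overlapped, with 0.390% to 0.557% and 0.0908% to 0.564% (4 of 11 lower). Neuron markers, led by Meg3, took 0.0316% to 0.0507% and 0.00479% to 0.0225% (4 of 9 lower), and choroid plexus and ependymal markers, led by Ttr, 0.0921% to 0.521% and 0.0176% to 0.165% (1 of 5 lower). Cdkn2a, the gene whose promoter drives the reporter of the sort, had 2, 0, 0, 2 and 4 counts in RFPneg1 to RFPneg5 and 0 in each RFPpos sample. These are too few counts to be tested or to check the sort, and 3′ counts do not separate p16 from p19Arf.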

How the data were processed

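The authors made QuantSeq 3′ FWD libraries and processed them with Lexogen's pipeline for unique molecular identifiers; the submitters' processing notes name mm10. The deposited values are whole-number counts per gene, not normalized. All 10 bulk samples were used. Reads on no gene (32.1% to 37.2% in RFPneg, 38.4% to 48.6% in RFPpos) and ambiguous reads (0.295% to 0.436%) were left out of library sizes. Symbols were found for 47224 of 47643 identifiers. The main test was edgeR 4.0.16 (quasi-likelihood) in R 4.3.3, with mouse as a block, TMM scaling, at least 15 counts in all, and Benjamini-Hochberg adjustment over 11103 genes. Standard errors were taken from the log2 fold change and the F statistic. Intervals cover the model's error; those of single counts cover counting error only. A second fit used the counts of 20 microglia genes as library size. Alternatives were DESeq2 1.42.0 (Wald), limma 3.58.1 (voom), edgeR's likelihood ratio test, other scalings and filters, no block, a log2 fold threshold of 1, and each mouse left out.

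The labels give the same mouse number to both samples of an animal, which is the pairing used. Correlations of deviations from the population means within mice were 0.107, −0.00264, 0.0512, 0.00143 and 0.0140. The members and gene lists were chosen with earlier results of these data known. Of relatives and other regulators, up to 8 called genes per direction with the smallest p and the gene with most counts are named; of lists of other cells, those with most counts or smallest p and markers at 0. Results of 2 relatives are not reported here. The motifs were chosen after the counts were seen, and 2 of them were shortened by 1 base after a first search so that no long sequence was typed into a script; the text gives both forms.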

Additional observations from a re-analysis of the deposited data

Results flagged for a closer look

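In 88 groups of 5 values, 6 had a sample far from the others relative to the group's range, where chance alone gives about 1 in 20. Mef2c was at 894 CPM in RFPpos1, against 692 to 722 CPM in the other RFPpos samples. Ikzf1 was at 197 CPM in RFPneg1, against 60.4 to 93.4 CPM. Gata2 was at 8.99 CPM in RFPpos1 and at 0 in the other 4. The share of T and NK cell markers was 0.00969% in RFPneg2 (others 0.0296% to 0.0370%), that of border macrophage markers 0.0383% in RFPpos2 (others 0.0202% to 0.0251%), and that of choroid plexus and ependymal markers 0.165% in RFPpos4 (others 0.0176% to 0.0444%). No cause was tested.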

How the results depend on the processing

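With library sizes taken from the microglia reference genes, 0 of the 9 factors were called in place of 9, and 5808 genes (13 higher, 5795 lower) in place of 1488 (577 higher, 911 lower), and the median over all tested genes shifted from −0.10 to −1.29 on the log2 scale. By construction that scaling holds the sum of the reference genes level and lowers nearly every estimate by a like amount, so changes of sign are expected. Single reference genes still differed: of the 20, 2 were called higher and 1 lower. Their log2 fold changes ran from −0.49 for Tyrobp (edgeR adjusted p = 0.0393) to 0.57 for Laptm5 (0.0108). Log2 fold changes then changed sign for Spi1 (−0.26), Irf8 (−0.19), Runx1 (−0.092), Maf (−0.051), Mafg (−0.42), Cebpz (−0.56), Skil (−0.25), Tfe3 (−0.080), Creg1 (−0.42), Bach1 (−0.10), Rel (−0.29), Nfatc2 (−0.22), Cx3cr1 (−0.21), Mrc1 (−0.52) and Ighm (−1.17, from 0.05).

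With edgeR's filterByExpr, which left 4210 genes, 916 were called (427 higher, 489 lower), and relative to the reference genes 3082 in place of 5808. DESeq2's Wald test called 887 genes (288 higher, 599 lower) and 7 of the 9 factors, leaving out Spi1 (adjusted p = 0.0933) and Runx1 (0.0671). The threshold of 1 on the log2 scale left out Spi1. With each mouse left out in turn, 1043 to 1327 genes and 7 to 9 factors were called, the 7 without mouse 3. The other settings called all 9 factors. Without the mouse as a replicate block, 1498 genes and all 9 factors were called, and relative to the reference genes 5898 genes and 0 factors, so the pairing changed no call of a factor.

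Relative to the reference genes, 0 factors were called in each setting run, with 4304 to 5685 genes called when mice were left out. Unadjusted p-values under 0.05 occurred for Ikzf1 and Cebpa with the 8 homeostatic genes as reference (lowest adjusted p = 0.0725), Ikzf1 without mouse 1 (0.0691) and Cebpa without mouse 2 (0.0659). The share of counts on the reference list differed by 2.07 to 2.36 percentage points with mice left out, and by 0.699 for the homeostatic genes. Causes were not tested. Runx1 and Cebpa, with the fewest counts, have wide intervals at this depth.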
